A study of Mus musculus with 2 samples.

Results

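The DNA replication genes described here are 35 genes whose products load and drive the replicative helicase, copy DNA, protect and repair the fork, or rebuild chromatin behind it. They were taken by symbol, and all 35 were among the 27933 gene symbols of the single-cell RNA tables of both libraries. By role they comprised 10 genes of the helicase and its loading, 8 of the polymerases, sliding clamp and single-strand binding, 4 of fork protection and checkpoint, 4 of repair and flap removal, and 9 of chromatin and histone supply. RNA was counted in cells of the mouse thymus, where T cells develop, in 1 library from wild type and 1 from a homozygous mutant of GATA sites 1 and 2 in NMe. NMe lies far from the proto-oncogene Myc, acts on it as an enhancer and is bound by NOTCH1, and GATA sites are motifs bound by GATA factors such as GATA3. The number of animals behind each library, their age and their strain are not given in the sources used here. With 1 library per genotype no test between genotypes exists, and every difference below is between these libraries. Levels are unique molecular identifiers (UMIs) of a gene summed over a group of cells, per 1000000 UMIs of that group (CPM). They come from 3′ ends and are not divided by transcript length, so a gene is compared with itself across cells, not with other genes. Ratios are log2 ratios, and values in parentheses after a level or ratio are exact 95% intervals for counting error only. A gene counts as past 1.5-fold when its levels differ by at least that much and reach 20 CPM in at least 1 of the groups compared. Where a group is described as a whole, fewer cells in cycle and less RNA per cell cannot be told apart.

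A cell copies its genome in S phase. The MCM2-7 ring is placed on DNA beforehand by factors that include Cdc6, is switched on with Cdc45 and the GINS complex, and then unwinds the duplex ahead of the polymerases. PCNA, the sliding clamp, holds the polymerases on DNA, while chaperones and the histone messenger RNA binding protein Slbp provide histones for the new strands. E2F transcription factors switch many of these genes on as a cell enters S phase, so their RNA is a common mark of replicating cells. In the thymus, proliferation is concentrated in late CD4-CD8- precursors and in the blasts that become CD4+CD8+ (double-positive) cells. Small double-positive cells, cells that receive a T cell receptor signal and most mature cells divide little.

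Promoter sequence was used neither to choose the genes nor to count them. RefSeq windows of build GRCm38.p6, from 250 bases before to 50 after a transcription start, were matched for 26 of 35 members. The search covered 4 forms of the E2F word, TTTCCCGC, TTTCGCGC, TTTGCCGC and TTTGGCGC, on both strands. A word was present in 14 of the 26 members (53.8%), in 2.61% of all 27025 genes with a window and in 5.64% of the 4330 genes that reached 20 CPM in a library and are no members. Among 36 other replication genes with a window, 13 (36.1%) held a word. The bases before the start are shown for 7 members whose levels are described below, 5′ to 3′ on the strand of the gene, with any E2F word in capitals.
Mcm5 (chr8:75109259-75109508, plus strand): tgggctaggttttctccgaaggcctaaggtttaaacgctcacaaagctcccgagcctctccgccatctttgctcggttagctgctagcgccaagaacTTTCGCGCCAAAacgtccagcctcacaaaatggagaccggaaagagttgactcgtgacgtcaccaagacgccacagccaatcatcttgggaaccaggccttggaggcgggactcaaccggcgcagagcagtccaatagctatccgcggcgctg
Mcm6 (chr1:128359706-128359955, minus strand): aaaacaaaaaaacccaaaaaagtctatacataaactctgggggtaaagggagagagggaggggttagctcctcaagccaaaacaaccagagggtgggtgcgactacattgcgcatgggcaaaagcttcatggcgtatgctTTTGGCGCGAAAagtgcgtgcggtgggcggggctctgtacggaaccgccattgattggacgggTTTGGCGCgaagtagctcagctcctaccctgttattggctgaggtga
Cdc6 (chr11:98907901-98908150, plus strand): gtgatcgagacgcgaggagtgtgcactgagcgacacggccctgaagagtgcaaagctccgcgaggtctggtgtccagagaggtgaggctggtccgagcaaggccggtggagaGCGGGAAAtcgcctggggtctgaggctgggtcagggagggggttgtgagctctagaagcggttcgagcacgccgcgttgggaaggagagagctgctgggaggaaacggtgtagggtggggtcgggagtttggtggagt
Dtl (chr1:191575545-191575794, minus strand): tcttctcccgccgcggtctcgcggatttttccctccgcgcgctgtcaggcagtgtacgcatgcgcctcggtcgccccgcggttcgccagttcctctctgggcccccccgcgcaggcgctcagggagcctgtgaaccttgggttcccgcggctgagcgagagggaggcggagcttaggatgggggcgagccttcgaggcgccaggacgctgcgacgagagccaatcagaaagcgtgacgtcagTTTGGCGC
Hells (chr19:38930740-38930989, plus strand): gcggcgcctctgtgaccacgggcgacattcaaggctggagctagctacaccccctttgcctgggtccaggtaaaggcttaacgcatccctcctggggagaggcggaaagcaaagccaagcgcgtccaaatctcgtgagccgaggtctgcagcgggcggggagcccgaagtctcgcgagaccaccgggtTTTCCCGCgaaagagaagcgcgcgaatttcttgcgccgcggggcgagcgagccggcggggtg
Pcna (chr2:132253181-132253430, minus strand): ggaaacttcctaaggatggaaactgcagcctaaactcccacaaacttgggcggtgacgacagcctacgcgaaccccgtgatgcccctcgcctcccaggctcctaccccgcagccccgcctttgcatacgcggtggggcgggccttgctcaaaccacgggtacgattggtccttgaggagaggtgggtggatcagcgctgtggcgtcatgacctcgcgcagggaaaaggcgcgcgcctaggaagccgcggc
Ung (chr5:114130185-114130434, plus strand): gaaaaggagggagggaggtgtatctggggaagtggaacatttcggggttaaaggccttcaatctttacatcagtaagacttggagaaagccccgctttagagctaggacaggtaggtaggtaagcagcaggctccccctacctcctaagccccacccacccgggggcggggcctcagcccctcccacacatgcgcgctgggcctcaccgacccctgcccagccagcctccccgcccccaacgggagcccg

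In Mcm5 and in the first stretch of Mcm6, a TTTCGCGC and a TTTGGCGC on opposite strands overlap and form 1 run of capitals, and Mcm6 holds a further TTTGGCGC nearer the start. Pcna and Ung held none of the 4 words in these windows. By role, a word was found in 5 of 7 members of the helicase group with a window, 3 of 6 of the polymerase group, both of the fork group, 0 of 3 of the repair group and 4 of 8 of the chromatin group. The shorter word CCAAT, searched on both strands, was present in 18 of 26 members (69.2%), in 41.1% of all genes with a window, in 43.6% of those that reached 20 CPM and are no members, and in 14 of the 36 other replication genes (38.9%). A match is a string of letters and no measure of binding. In the S phase readout below, the median log2 ratio of S phase over G2/M was 1.38 for the 14 members with an E2F word and 1.67 for the 12 with a window and no word in wild type, and 1.74 for either set in mutant.

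Depth was 6638880 UMIs over 1346 barcodes in wild type and 6364506 UMIs over 1737 barcodes in mutant, with 1781 and 1416 as the lowest totals per barcode. The filters left 1338 and 1726 cells, and the libraries shared 1 barcode. Each cell was placed in the early, double-positive, signalled or mature stage whose marker genes, none of them members, it carried at the highest rate relative to the mean of that list. Early cells were 100 in wild type and 360 in mutant, double-positive cells 735 and 506, signalled cells 248 and 378, and mature cells 251 and 476. A stage set in this way is a range and not a cell type: 247 wild type and 345 mutant cells lay within 1.5 times of a boundary. In the mutant early stage the median of double-positive markers, 17 UMIs per 10000, was close to that of early markers, 16.7, and in wild type the medians were 8.75 and 11.8. Early cells also held plasma cell markers at 840.3 CPM and dendritic cell markers at 1604 CPM in wild type, and macrophage markers at 500.2 and dendritic cell markers at 947 CPM in mutant. Without the 10 wild type and 53 mutant cells that had over 20 UMIs of such markers, a choice made after the data were seen, the counts of members past 1.5-fold given below were 10 over all cells, 3 in the early stage, all higher, 25 in the double-positive stage, 6 in the signalled and 4 in the mature stage. They were 3 in S phase and 3 in G2/M between the libraries, and 32 and 35 for S phase over G2/M.

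Cell cycle phase was set from 15 S phase genes and 56 G2/M genes that are no members, since members define many S phase lists. Genes such as Rrm2 and Tyms are switched on together with the members, so S phase cells were in effect chosen by the partners of these genes, and the ratios below are descriptions. Cells in cycle were 44.9% of wild type cells and 19.5% of mutant cells. S phase held 224 wild type cells (16.7%, exact interval 14.8% to 18.9%) and 144 mutant cells (8.34%, 7.08% to 9.75%), and G2/M held 211 and 114 cells. With each cell thinned to 1500 UMIs, S phase was 18.0% of wild type and 9.27% of mutant cells. The largest gap lay in the double-positive stage, where 65.7% of wild type and 22.9% of mutant cells were in cycle. In the early stage these shares were 40% and 30.8%, in the signalled stage 19.4% and 18.0%, and in the mature stage 11.2% and 8.40%. Phase boundaries are no sharp breaks either: 319 of the wild type and 166 of the mutant cycling cells lay within 1.5 times of the limit between phases.

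**Figure D1:**
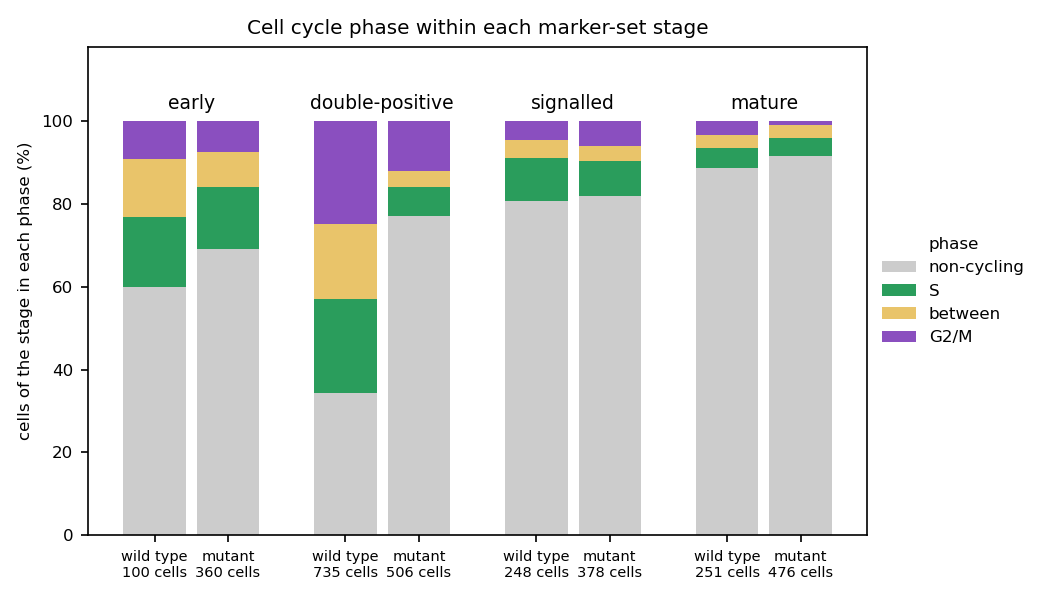
Cells of each stage in each cell cycle phase (vertical axis, % of the cells of that stage), for the wild type and mutant library, with the number of cells under each bar. In the double-positive stage 65.7% of wild type and 22.9% of mutant cells were in cycle, and in the other stages the libraries lay closer together.

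Across stages, summed over all 35 genes, wild type cells were at 3678 CPM in the early stage, 5675 in the double-positive, 3253 in the signalled and 1591 in the mature stage. Mutant cells were at 4338, 3174, 3239 and 1610 CPM. The double-positive stage was thus the highest of the 4 in wild type, the early stage in mutant, and the mature stage the lowest in both.

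Among the genes of the helicase and its loading, Mcm2 to Mcm7 encode the 6 subunits of the ring, Cdc6 its loader, Cdc45 and Gins2 its activating partners, and Gmnn geminin, which blocks reloading until division. Gmnn, the member of this group with the most UMIs, was at 133, 269.6, 135 and 44.7 CPM from the early to the mature stage in wild type and at 155, 133, 149 and 48.7 CPM in mutant. Mcm7 was at 125, 185, 117 and 53.4 CPM in wild type and at 176, 141, 142 and 78.9 CPM in mutant. Both genes were highest in double-positive cells in wild type and in early cells in mutant. Cdc6 had few UMIs outside the wild type double-positive stage: it was at 12, 41.7, 23.7 and 7.63 CPM in wild type and at 30.6, 16.2, 11.1 and 9.28 CPM in mutant, and the early wild type value rests on 9 UMIs.

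In the polymerase group, Pcna encodes the sliding clamp, Rfc2 a subunit of its loader, Dscc1 a subunit of an alternative loader used in sister chromatid cohesion, Pola1 and Prim1 the primer-making enzyme, Pold3 a subunit of polymerase delta, Rpa2 a single-strand binding subunit and 2810417H13Rik the PCNA-binding factor now called Pclaf. 2810417H13Rik was at 640.2, 1238, 588 and 194 CPM over the 4 stages in wild type and at 708, 578, 590.01 and 178 CPM in mutant. Pcna was at 271, 523, 287 and 132 CPM in wild type and at 334, 228, 298 and 129.9 CPM in mutant. The mutant double-positive level of Pcna lay under its own early and signalled levels, while in wild type it was the highest of the 4. Reads of Pcna and of its near-identical pseudogene Pcna-ps2, which was at 24.7 and 14.6 CPM over all cells, may be split between them, so the level of Pcna is uncertain by about that much.

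In the fork group, Clspn (claspin) passes the stalled-fork signal to CHK1, Tipin protects the fork as the partner of Timeless, Dtl targets proteins bound to PCNA for destruction, and Usp1 removes ubiquitin from PCNA. Tipin was at 184, 219.7, 145 and 66.5 CPM in wild type and at 202, 129, 133 and 74.2 CPM in mutant. Usp1 was at 129, 199.5, 120.3 and 68.6 CPM in wild type and at 156, 139, 129.6 and 71.3 CPM in mutant. The spread over the stages was narrower for Usp1 in mutant than in wild type in these values, and no test of that difference exists.

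Of the repair genes, Fen1 encodes the nuclease that removes flaps from lagging-strand fragments, Exo1 an exonuclease of mismatch repair, Ung the enzyme that removes uracil from DNA and Blm a helicase that resolves recombination intermediates. Fen1 was at 54.7, 107, 53.05 and 34.9 CPM in wild type and at 76.9, 64.3, 53.3 and 33.6 CPM in mutant. Ung had its highest level in the early stage of both libraries, 56.02 against 41.9, 36.9 and 38.1 CPM in wild type and 62.9 against 22.6, 39.2 and 24.9 CPM in mutant. In wild type, the intervals of all 4 stages for Ung overlapped.

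In the chromatin group, Chaf1b is a subunit of the histone chaperone CAF-1, Nasp a histone H3-H4 chaperone, Slbp the protein that binds the end of histone messenger RNA, Uhrf1 the reader that brings DNA methylation to new strands, Hells a chromatin remodeller and Cdca7 its partner. Atad2 is a chromatin-bound ATPase, Wdr76 a DNA-damage-linked WD-repeat protein and Ubr7 a histone ubiquitin ligase. Slbp was at 224, 453, 229 and 109 CPM in wild type and at 334, 239, 275 and 122 CPM in mutant. Cdca7 was at 192, 279.7, 167 and 70.8 CPM in wild type and at 260.2, 251, 142 and 60.3 CPM in mutant. Its mutant double-positive level was close to the wild type level there, unlike that of Slbp. In non-cycling double-positive cells Cdca7 was at 167 CPM in wild type and 171 CPM in mutant, against 75.1 and 38.7 CPM in non-cycling signalled cells and 41.2 and 26.1 CPM in non-cycling mature cells.

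**Figure D2:**
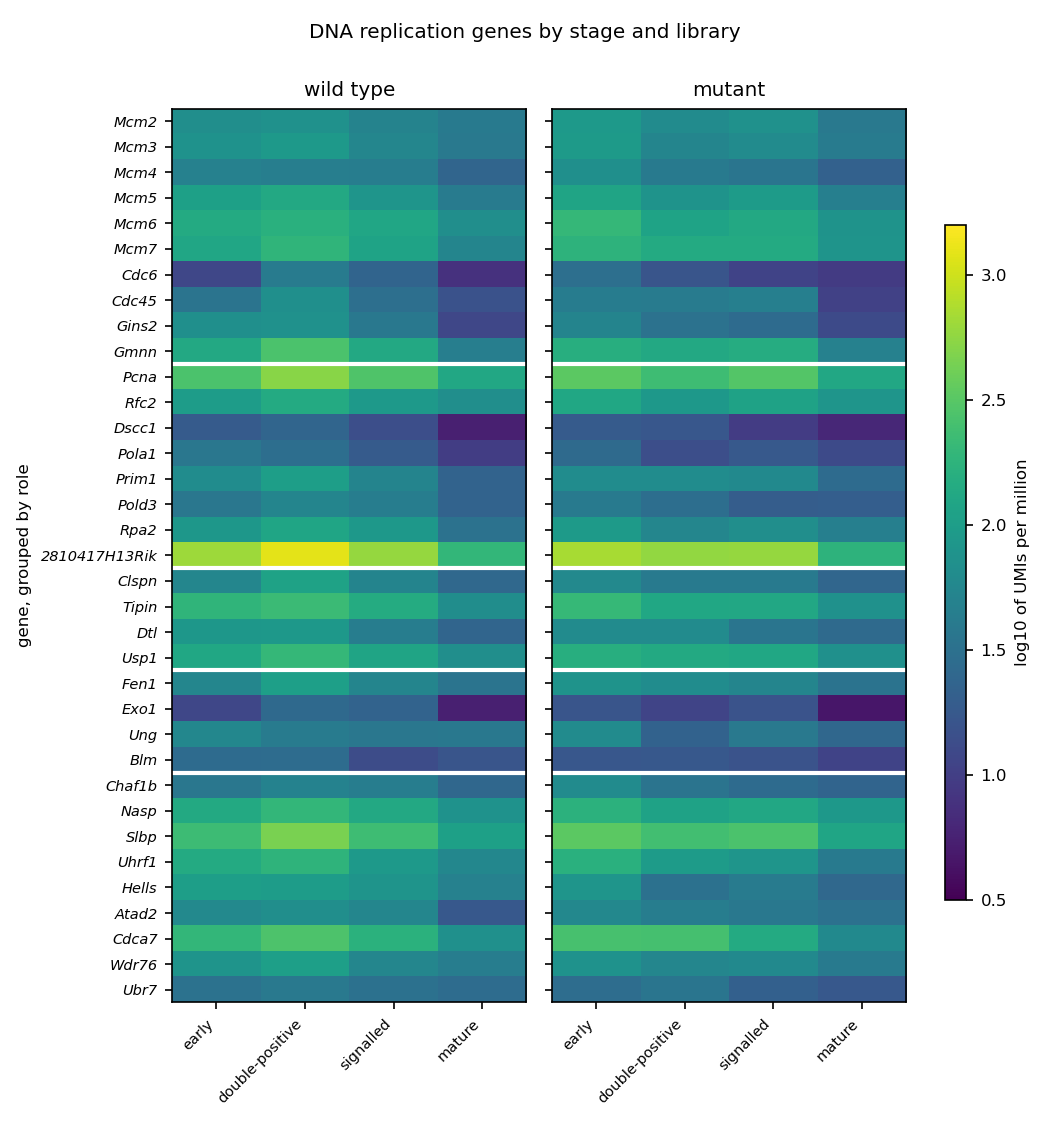
Level of each of the 35 genes (rows, grouped by role between the white lines) in the early, double-positive, signalled and mature stage of each library, as log10 of CPM (colour). Most rows are brightest in the double-positive column in wild type and in the early column in mutant, and darkest in the mature column of both.

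Early cells were set against double-positive cells within each library. In wild type, 31 of 35 members were lower in early cells, 11 of them past 1.5-fold, where 25.4% of all genes measured were past that fold in that direction. The median log2 ratio was -0.44, against -0.21 over all genes. The 3 lowest were Cdc6 at 12 against 41.7 CPM, a ratio of -1.80 (-2.95 to -0.83), Exo1 with a ratio of -1.14 (-2.31 to -0.16) and Clspn with -1.04 (-1.54 to -0.58). At the other end Ung had 0.42 (-0.11 to 0.92), Pola1 0.32 (-0.34 to 0.92) and Hells 0.10 (-0.27 to 0.45), so that all 3 intervals included 0. With each cell thinned to 1500 UMIs, the wild type ratio of Exo1 turned to 0.94, while the median stayed under 0 with 1 member higher and 17 lower past 1.5-fold. In mutant, 31 of 32 measured members were higher in early cells, 14 of them past 1.5-fold against 10.7% of all genes, with a median of 0.55 against -0.18. The 3 highest were Ung at 62.9 against 22.6 CPM, a ratio of 1.48 (0.90 to 2.09), Hells at 81.9 against 32.5 CPM, a ratio of 1.33 (0.85 to 1.84), and Pola1 with 0.95 (0.17 to 1.78). Ubr7, at -0.29 (-0.87 to 0.30), was the 1 member lower in early cells. The mutant direction depended on the early markers and on depth. With early markers chosen without 4 NOTCH targets the median was -0.18 and 1 gene was higher and 3 lower past 1.5-fold, and with each cell thinned to 1500 UMIs the median was -0.30 with 3 higher and 6 lower. Pola1 was then at -0.80. After thinning the early stage held 54 wild type and 251 mutant cells, so the thinned values of Exo1 and Pola1 rest on few UMIs.

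Mutant cells were then set against wild type cells within each stage. In the double-positive stage all 35 members were lower in mutant, 25 of them past 1.5-fold, where 6.21% of all genes measured were past that fold in that direction and 23.9% in the other. The median log2 ratio was -0.78, while the median of all genes was 0.25, so the members lay further below the other genes than their own ratios say. The lowest ratios were those of Hells, at 97.3 CPM in wild type and 32.5 CPM in mutant, a ratio of -1.58 (-2.06 to -1.14), of Clspn, at 113 and 40.2 CPM, -1.49 (-1.91 to -1.09), and of Cdc6, at 41.7 and 16.2 CPM, -1.36 (-2.06 to -0.72). The ratios nearest to 0 were those of Ubr7, at 38.8 and 35.3 CPM, -0.14 (-0.63 to 0.33), of Cdca7, -0.16 (-0.34 to 0.02), and of Mcm4, at 45.3 and 39.5 CPM, -0.20 (-0.66 to 0.25). For 30 of 35 members the counting interval lay below 0, but no such share was taken over all genes. By role, 6 of 10 genes of the helicase group, 7 of 8 of the polymerase group, 2 of 4 of the fork group, 4 of 4 of the repair group and 6 of 9 of the chromatin group were lower past 1.5-fold.

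The double-positive difference came with a smaller share of cells in cycle and with lower depth, a median of 1954.5 UMIs per mutant cell against 3737 in wild type. When each mutant phase was given the weight of its wild type counterpart in the UMIs of this stage, an alternative chosen after the data were seen, the median was 0.11 against 0.23 over all genes. No member was then lower past 1.5-fold, where 4.14% of all genes were, and 3 were higher, where 15.7% were. As the phases were set from genes switched on together with the members, this weighting cannot decide what the difference comes from. With barcodes under 1781 UMIs left out of both libraries, 15 members were lower past 1.5-fold, and 16 were with early markers chosen without the NOTCH targets or with at least 4 marker UMIs required of a stage.

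In the early stage 24 of 33 measured members were higher in mutant, with a median of 0.22 that did not stand apart from the 0.26 of all genes. Cdc6, at 12 CPM in wild type (9 UMIs) and 30.6 in mutant (55 UMIs), had a ratio of 1.35 (0.32 to 2.55), and Chaf1b, at 37.3 and 64.1 CPM, one of 0.78 (0.17 to 1.43). These 2 were the members higher past 1.5-fold, against 24.3% of all genes, and Blm, at 28.01 and 17.3 CPM, was the 1 lower past it, against 4.64%, with a ratio of -0.70 (-1.54 to 0.17). Slbp, the third highest, had 0.58 (0.33 to 0.83), and Pola1 and Gins2, next to Blm at the lower end, -0.45 (-1.15 to 0.27) and -0.41 (-0.91 to 0.11). With early markers chosen without the NOTCH targets the median was -0.30, with 5 members lower and 0 higher past 1.5-fold, so the direction in this stage rests on how early cells are set. With each cell thinned to 1500 UMIs, 13 members were past 1.5-fold, Chaf1b turned to -0.22 and Cdc6 was at 0.11. Cdc45 then turned from 0.31 to -1.80 and Hells from -0.35 to 0.59. Only 54 wild type cells were early after thinning, so these thinned values rest on few UMIs and carry no interval.

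In the signalled stage 16 measured members were higher and 16 lower in mutant, with a median of -0.02. Pold3, at 43.6 CPM in wild type and 19.99 CPM in mutant, was the lowest at -1.12 (-1.87 to -0.41), followed by Cdc6 at -1.09 (-2.12 to -0.11) and Hells at -0.90 (-1.41 to -0.39). Cdc45, at 30.3 and 45.9 CPM, was the 1 member higher past 1.5-fold, against 11.9% of all genes, with a ratio whose interval included 0, 0.60 (-0.04 to 1.26), and 5 were lower past it, against 3.93%. Mcm2 and Rfc2 followed Cdc45, at 0.52 (0.03 to 1.02) and 0.36 (-0.02 to 0.75). With barcodes under 1781 UMIs left out, 1 was higher and 1 lower. In the mature stage 14 measured members were higher and 14 lower, with a median of 0.02. There Hells, at 49.02 and 26.1 CPM, was the lowest at -0.91 (-1.54 to -0.28), and Atad2, at 17.4 and 31.9 CPM from 16 and 55 UMIs, the highest at 0.87 (0.05 to 1.77). Ubr7 at -0.70 (-1.51 to 0.11) and Ung at -0.61 (-1.29 to 0.07) were next to Hells, and Mcm7 at 0.56 (0.08 to 1.07) and Rpa2 at 0.51 (-0.12 to 1.16) next to Atad2. Past 1.5-fold, 1 mature member was higher, against 7.93% of all genes, and 3 were lower, against 4.55%. Markers of other cell types also differed in this stage. The 7 dendritic cell markers summed to 30.5 CPM in wild type and 849 CPM in mutant, and 6 B cell markers to 12 and 236 CPM. The 7 macrophage markers summed to 169.9 and 29 CPM. The dendritic cell markers Itgax, Flt3 and Siglech were at 0 in both libraries, so the mutant sum came from H2-Aa, H2-Ab1, H2-Eb1 and Cd74. Without the cells that had over 20 UMIs of such markers the counts were again 1 and 3.

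Within each library, S phase cells were set against G2/M cells. All 35 members were higher in S phase in both libraries, 32 of them past 1.5-fold in wild type, where 10.1% of all genes measured were, and 35 in mutant, against 13.5%. The 32 wild type genes were also past it in mutant. Median log2 ratios were 1.41 in wild type and 1.73 in mutant, while the medians of all genes were -0.16 and -0.11. When S phase was set from replication histone UMIs instead, 24 members in wild type and 21 in mutant were higher past 1.5-fold, 1 was lower in mutant, and the medians were 0.84 and 0.75.

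Ung had the highest ratio of S phase over G2/M in both libraries. It was at 8.08 CPM in G2/M and 116 in S phase in wild type, a ratio of 3.85 (2.97 to 4.87), and at 13.4 and 159 CPM in mutant, a ratio of 3.57 (2.69 to 4.60). With S phase set from histone UMIs its ratio turned to -0.57 and -1.71. That setting also changed which cells were in cycle and in G2/M. S phase then held 140 wild type and 53 mutant cells, and G2/M 194 and 136. In the main setting, histone-rich S phase cells held less Ung than histone-poor ones (below), though more than G2/M cells. The reason for the turn was not tested. Chaf1b, at 15.4 and 88.9 CPM in wild type, had a ratio of 2.53 (1.86 to 3.26) there and of 2.07 (1.41 to 2.78) in mutant. Dtl, at 35.97 and 161 CPM in wild type, had ratios of 2.17 (1.72 to 2.64) and 1.84 (1.27 to 2.46). In mutant, Pola1 at 3.35 (2.04 to 5.02) and Dscc1 at 3.07 (1.75 to 4.76) followed Ung, each from 5 UMIs in G2/M cells.

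The lowest ratios of S phase over G2/M belonged to Blm, Usp1 and Cdca7 in both libraries. Blm was at 32.3 CPM in G2/M and 34.7 in S phase in wild type, a ratio of 0.10 (-0.50 to 0.71), and at 23.2 and 38.4 CPM in mutant, 0.73 (-0.11 to 1.62), so that both intervals included 0. Usp1 was at 192 and 237 CPM in wild type, 0.30 (0.07 to 0.53), and at 172 and 308 CPM in mutant, 0.84 (0.54 to 1.14). Cdca7 was at 255 and 336 CPM in wild type, 0.40 (0.20 to 0.60), and at 271 and 425 CPM in mutant, 0.65 (0.41 to 0.90). These 3 were the members that did not reach 1.5-fold in wild type.

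The other members with the most UMIs in their roles lay between these ends. 2810417H13Rik remained high in G2/M, at 927 against 1571 CPM in S phase in wild type and 864 against 1656 in mutant, ratios of 0.76 (0.66 to 0.86) and 0.94 (0.81 to 1.07). Gmnn was likewise present in both phases, at 214 and 323 CPM in wild type, 0.60 (0.39 to 0.81), and at 185 and 375 CPM in mutant, 1.02 (0.74 to 1.30). Pcna differed more between the phases, at 208 and 881 CPM in wild type, 2.08 (1.90 to 2.27), and at 149.9 and 922 CPM in mutant, 2.62 (2.35 to 2.90). Slbp was at 209.97 and 689 CPM in wild type, 1.71 (1.52 to 1.91), and at 236 and 832 CPM in mutant, 1.82 (1.59 to 2.05). Among the MCM genes, Mcm7 had the lowest ratio in both libraries, 0.95 and 1.04, and the other 5 lay between 1.24 and 2.14 in wild type and between 1.65 and 2.42 in mutant. Tipin had 1.20 and 1.31, and Fen1 1.43 and 1.44.

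**Figure D3:**
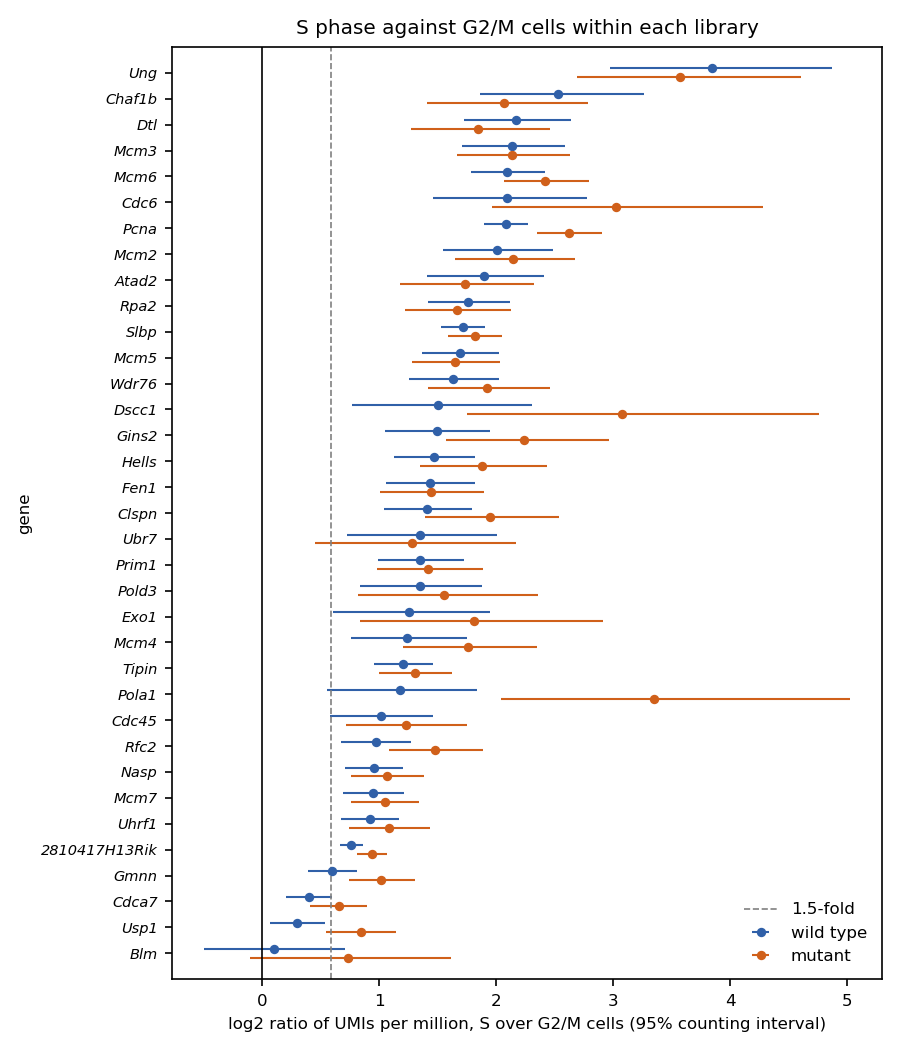
Log2 ratio of CPM in S phase over G2/M cells for each of the 35 genes (rows, ordered by the wild type ratio), in wild type (blue) and mutant (orange), with 95% counting intervals as lines and the 1.5-fold limit dashed. All points lie above 0, from 0.10 for Blm to 3.85 for Ung in wild type.

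Replication histone UMIs, from 67 histone gene symbols, split S phase cells into 101 wild type and 74 mutant cells that were histone-poor and 123 and 70 that were histone-rich. Histone messages rise as DNA synthesis begins, so this split may order cells along S phase, but the order was not measured. Over 6 classes of cells, from non-cycling to histone-poor G2/M, 15 members were highest in histone-poor S phase cells in wild type and 18 in mutant, and 19 and 17 in histone-rich S phase cells. Blm in wild type was highest in histone-rich G2/M cells. For 25 of 35 members the highest class was the same in both libraries.

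Ung stood at the histone-poor end and 2810417H13Rik at the histone-rich end. In histone-poor and histone-rich S phase cells Ung was at 194 and 58.2 CPM in wild type, a ratio of 1.74 (1.27 to 2.23), and at 283 and 51.9 CPM in mutant, 2.45 (1.83 to 3.12). 2810417H13Rik was at 961 and 2022 CPM in wild type, -1.07 (-1.21 to -0.94), and at 999 and 2227 CPM in mutant, -1.16 (-1.32 to -0.99). These 2 genes were past 1.5-fold in the same direction in both libraries.

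In wild type, Dtl at 0.66 (0.29 to 1.03) and Mcm4 at 0.61 (0.09 to 1.13) were the further members higher in histone-poor cells past 1.5-fold, where 9.16% of all genes were, and Cdc45 at -0.72 (-1.25 to -0.20) and Atad2 at -0.64 (-1.11 to -0.18) were lower, where 15.8% of all genes were. In mutant, Cdc6 at 0.92 (0.21 to 1.65) and Chaf1b at 0.73 (0.16 to 1.32) were higher, against 13.4% of all genes, and Ubr7 at -0.89 (-1.88 to 0.04) and Usp1 at -0.80 (-1.17 to -0.44) lower, against 18.5%. With 3 members past the limit each way in either library, these shares were at or under those of all genes. Pcna was at 688 and 1023 CPM in wild type and at 839 and 994 in mutant, Slbp at 565 and 781 CPM and at 719 and 929.9. Both were higher in histone-rich cells in each library, without reaching 1.5-fold in either.

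**Figure D4:**
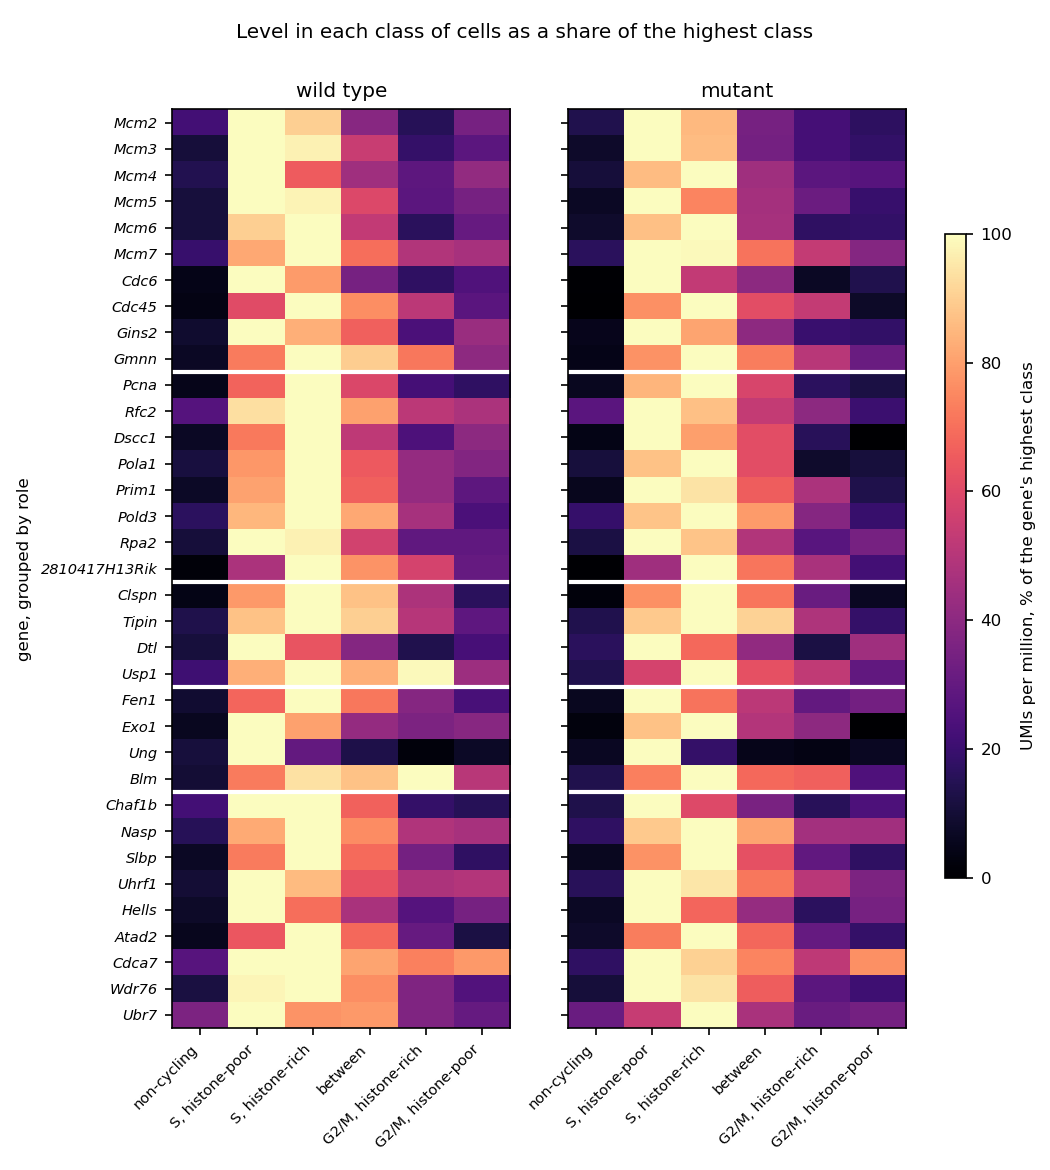
Level of each of the 35 genes (rows, grouped by role between the white lines) in 6 classes of cells set by phase and histone UMIs, as % of the highest class of that gene (colour), for each library. The brightest cells lie in the S phase columns for all rows but Blm in wild type, and Ung is brightest in the histone-poor S phase column of both libraries.

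Non-cycling cells kept a low level of the members, 907 CPM in sum in wild type and 918 in mutant, against 8411 and 9706 CPM in S phase. All 35 were higher in S phase than in non-cycling cells past 1.5-fold in both libraries, where 23.8% of all genes in wild type and 28.4% in mutant were, with medians of 3.15 and 3.16. The residual level was uneven. In non-cycling cells Ubr7 was at 22.5 CPM in wild type and 20.1 CPM in mutant, 41.4% and 40.1% of its S phase level, and Rfc2 at 52.1 and 70.2 CPM, 27.3% and 29.6% of it. 2810417H13Rik was at 38.2 and 11.3 CPM, 2.43% and 0.683%, and Cdc45 at 4.04 and 0.503 CPM, 4.33% and 0.393%, the mutant value from 2 UMIs. These 4 genes were chosen after their values were seen, as the ends of that range. Free RNA in the droplets can add to the level of a gene in non-cycling cells, and its part here was not tested. In the comparison of non-cycling cells between the libraries, 13 of 20 measured members were higher and 7 lower in mutant, with a median of 0.09 against 0.07 over all genes. Only 2810417H13Rik was past 1.5-fold, lower in mutant with a ratio of -1.75 (-2.31 to -1.22), where 1.88% of all genes were lower past it and 4.5% higher.

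Over all cells, 32 of 34 measured members were lower in mutant and 2 higher, with a median log2 ratio of -0.53 against 0.09 over all genes. Past 1.5-fold, 13 were lower, where 3.97% of all genes were, and 0 were higher, where 9.15% were. Clspn was at 84.2 CPM in wild type and 41.6 CPM in mutant, a ratio of -1.02 (-1.24 to -0.80), Hells at 88.3 and 46.8 CPM, -0.92 (-1.12 to -0.71), and Gins2 at 58.3 and 31.9 CPM, -0.87 (-1.12 to -0.62). At the other end were MCM genes: Mcm2 at 64.8 and 66.04 CPM, 0.03 (-0.17 to 0.22), Mcm4 at 42.3 and 42.5 CPM, 0.01 (-0.24 to 0.26), and Mcm6 at 142 and 133 CPM, -0.09 (-0.22 to 0.05). The ratios of Mcm2 and Mcm4 were under 0 when CPM left out ribosomal protein and mitochondrial genes (-0.02 and -0.04) and with median-of-ratios size factors (-0.05 and -0.06). Of the genes with the most UMIs, 2810417H13Rik was at 921 (898 to 944) CPM in wild type and 509 (491 to 526) CPM in mutant, Pcna at 402 (387 to 418) and 247 (235 to 259), and Slbp at 343 (329 to 357) and 242 (230.1 to 255).

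The libraries differed in the cells that these sums were taken over. S phase cells gave 24.0% of all UMIs in wild type and 14.9% in mutant, G2/M cells 20.6% and 13%, and non-cycling cells 33.7% and 63.1%. With the mutant phases weighted to the wild type shares of UMIs, an alternative chosen after the data were seen, 22 members were higher and 13 lower in mutant, none was past 1.5-fold, where 5.63% of all genes were higher and 1.49% lower, and the median was 0.14 against 0.16 over all genes. The weighted ratio of Clspn was -0.20, that of Hells -0.29, of Gins2 -0.21 and of 2810417H13Rik 0.0033. The count of 13 members past 1.5-fold over all cells was 0 with this weighting. The phases were set from genes switched on together with the members, so the weighting cannot decide what the difference comes from. That was not tested.

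Within S phase, 27 members were higher in mutant and 8 lower. The median of 0.22 was close to the 0.20 of all genes, and 3 members were higher past 1.5-fold, where 17.8% of all genes were, and 0 lower, where 4.64% were. These 3 were Mcm4, at 83.3 CPM in wild type and 139.9 CPM in mutant, 0.75 (0.39 to 1.11), Mcm6, at 317 and 489 CPM, 0.63 (0.44 to 0.81), and Mcm2, at 141 and 216 CPM, 0.61 (0.33 to 0.89). The other MCM genes were also higher: Mcm3 was at 171 and 240.3 CPM, Mcm5 at 232 and 294, and Mcm7 at 256 and 355. All 6 intervals lay above 0, but 0 is under the median of all genes here, and no such share was taken over all genes. The ratios of the 6 remained above 0 under both other scalings, from 0.18 for Mcm5 to 0.59 for Mcm4 without ribosomal protein and mitochondrial genes and from 0.17 to 0.57 with median-of-ratios size factors. With those scalings 1 and 0 members were past 1.5-fold, and the median of all genes was 0.04 and 0.03. Over the alternatives for how cells, depth and S phase were set, the count ranged from 0 to 7.

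At the lower end in S phase were Dtl, at 161 and 136 CPM, -0.25 (-0.57 to 0.06), Hells, at 189 and 166 CPM, -0.19 (-0.48 to 0.10), and Pold3, at 80.1 and 71.5 CPM, -0.16 (-0.61 to 0.27). None of the 8 lower members had an interval below 0. Pcna, at 881 and 922 CPM, and 2810417H13Rik, at 1571 and 1656 CPM, had ratios of 0.07 (-0.06 to 0.19) and 0.08 (-0.02 to 0.17), under the median of all genes. Myc, the gene whose enhancer NMe is, was at 46.1 CPM in wild type S phase cells and 28.8 in mutant, from 73 and 27 UMIs.

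The stages of the S phase cells differed between the libraries. Double-positive cells made up 167 of the 224 wild type and 36 of the 144 mutant S phase cells, and early cells 17 and 54. Within double-positive S phase cells 28 members were higher and 7 lower in mutant, with a median of 0.32 against 0.27 over all genes. Past 1.5-fold, 9 were higher, where 29.7% of all genes were, and 1 was lower, where 11.4% were. Mcm6 was there at 323 and 579 CPM, 0.84 (0.50 to 1.17), and Mcm4 at 76.2 and 148 CPM, 0.96 (0.24 to 1.62). Within early S phase cells 29 were higher and 6 lower, with a median of 0.47 against 0.26, with 13 higher past 1.5-fold, where 32.4% of all genes were, and 0 lower, where 14.4% were. Mcm6 was at 224 and 447 CPM in these cells, about 1.0 with an interval from 0.47 to 1.56. All 6 MCM genes were higher in mutant within each of these stages, with ratios from 0.32 for Mcm3 to 0.96 for Mcm4 in double-positive cells and from 0.36 for Mcm2 to that of Mcm6 in early cells. The lowest of these ratios lay near the medians of all genes. In early cells the intervals of Mcm2 (-0.30 to 1.06), Mcm4 (-0.24 to 1.45) and Mcm5 (-0.04 to 1.19) included 0, and those of Mcm3, Mcm6 and Mcm7 lay above it. The early values rest on 17 wild type cells. Dendritic cell markers summed to 376 CPM in wild type S phase cells and 89.7 CPM in mutant ones. By stage, wild type early cells held them at 1604 CPM, and double-positive, signalled and mature cells at 26.4, 31.3 and 30.5 CPM. In each library 1 S phase cell had over 20 UMIs of markers of other cell types. The wild type one is likely among these 17 cells, and its weight in the early S phase values was not tested.

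In G2/M, 17 measured members were higher and 14 lower in mutant, with a median of 0.06 against 0.15. Pola1, at 22.02 and 6.09 CPM, was the lowest at -1.85 (-3.58 to -0.47), and Chaf1b, at 15.4 and 28.03 CPM, the highest at 0.86 (-0.06 to 1.79). Gins2 at -0.62 (-1.40 to 0.12) and Hells at -0.60 (-1.19 to -0.03) were next to Pola1, and Mcm3 at 0.50 (-0.11 to 1.10) and Mcm2 at 0.47 (-0.17 to 1.10) next to Chaf1b. With each cell thinned to 1500 UMIs, Hells turned to 0.39 and Pola1 was at -0.12. Past 1.5-fold, 1 was higher, against 13.6% of all genes, and 3 were lower, against 5.5%.

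**Figure D5:**
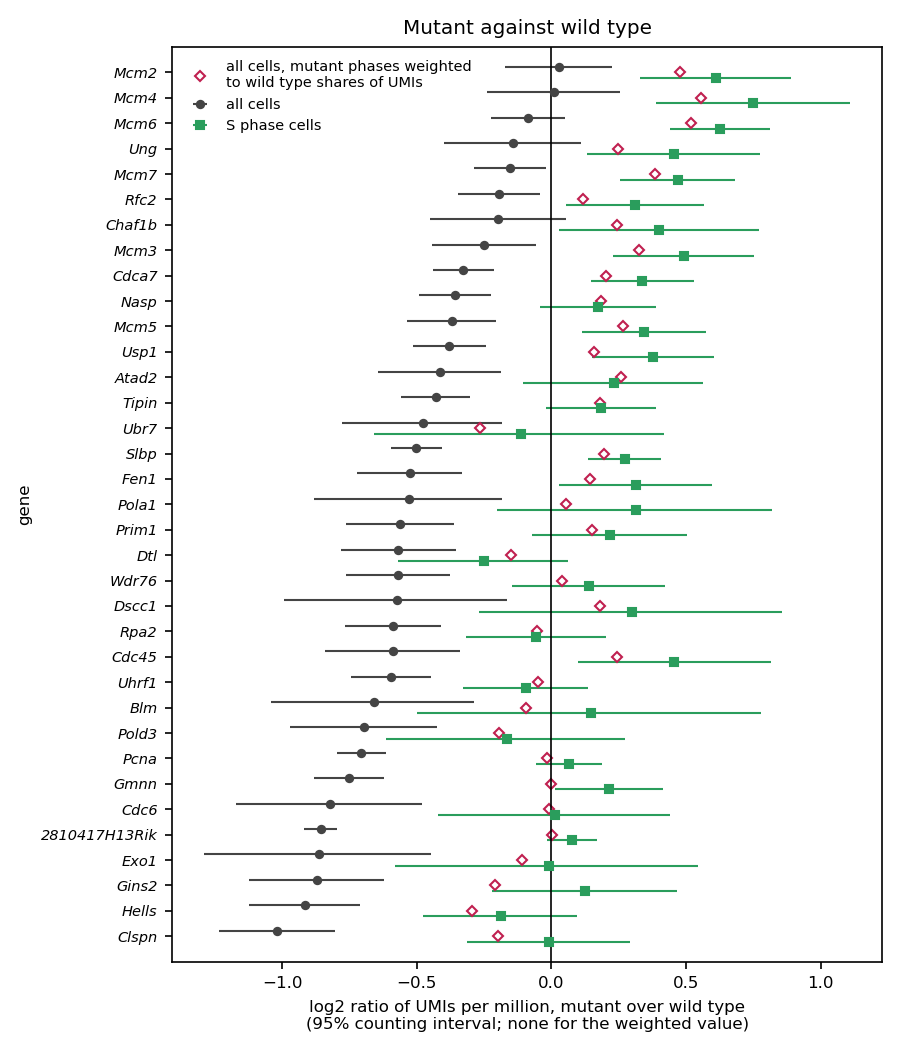
Log2 ratio of CPM, mutant over wild type, for each of the 35 genes (rows), over all cells (grey circles), in S phase cells (green squares) and over all cells with the mutant phases weighted to the wild type shares of UMIs (open diamonds), with 95% counting intervals as lines where given. Grey circles lie left of 0 for all genes but Mcm2 and Mcm4, and the 3 green squares farthest to the right are Mcm4, Mcm6 and Mcm2.

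A list of 42 other replication genes, among them Cdt1, Lig1, the origin recognition and polymerase epsilon genes, gave the surroundings of the members. Over all cells 31 of 32 measured were lower in mutant, 11 past 1.5-fold, with a median of -0.43, and in double-positive cells 33 of 34 were lower, 20 past 1.5-fold, with a median of -0.75. Lig1, the ligase that joins lagging-strand fragments, was the lowest over all cells, at 176 CPM in wild type and 88.7 CPM in mutant, -0.99 (-1.14 to -0.84), followed by Esco2 at -0.98 (-1.21 to -0.76). Mcmbp at 0.08 (-0.10 to 0.25) and Top1 at -0.05 (-0.15 to 0.05) were the highest. In S phase over G2/M, 29 of 39 measured genes in wild type and 33 of 39 in mutant were higher past 1.5-fold and 1 in each was lower, with medians of 1.01 and 1.13. The gene that was lower was Dbf4, the activator of the CDC7 kinase that fires origins, at -1.37 and -1.15. The members, with 32 and 35 of 35, thus shared their phase pattern with most of the other replication genes.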

How the data were processed

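UMI counts per gene and cell of thymocytes from 1 wild type and 1 mutant library were used as deposited by the authors, with whole-number counts checked in both tables. Cell Ranger and the mm10 genome are named in the submitters' processing notes, with the Cell Ranger version not given in the sources used here. Cells with at least 400 genes and at most 10% mitochondrial UMIs were kept, and doublets called by Scrublet at an expected rate of 4% (scanpy 1.11.5) were removed, 3 in wild type and 5 in mutant (0.260% of barcodes). Python 3.11.15, numpy 2.4.6, scipy 1.17.1 and matplotlib 3.10.9 were used.

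The members and all lists were chosen with earlier results of these data known. A cell took the stage whose markers, with at least 2 UMIs, had the highest rate divided by the mean rate of that list over the libraries. It was in cycle at 15 S phase gene UMIs or 80 G2/M gene UMIs per 10000, from at least 4 UMIs, and in S phase or G2/M where 1 scaled rate was at least 1.5 times the other. Histone-rich cells had at least 60 replication histone UMIs per 10000. Counts were summed over cells, divided by the total and set side by side with exact Poisson intervals for levels and exact conditional intervals for ratios. A gene was measured where either side reached 20 CPM. Steps were tested on simulated data. Genes named are the first 2 of each role by UMIs and the 3 highest and 3 lowest of a comparison, and others where the text says so. Alternatives covered scaling, depth, cell filters, doublets, marker lists and phase rules.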

Additional observations from a re-analysis of the deposited data

Results flagged for a closer look

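Within some members the mutant library was higher in 1 stage and lower in another. None of these differences was tested, as each stage has 1 library per genotype.

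Cdc6, the helicase loader, was higher in mutant early cells with a log2 ratio of 1.35 and lower in mutant double-positive cells at -1.36 and signalled cells at -1.09. The same gene was lower in early than in double-positive cells in wild type, at -1.80, and higher in mutant, at 0.92. With each cell thinned to 1500 UMIs, Cdc6 was at 0.11 between the libraries in early cells. Early over double-positive cells of the mutant turned to -0.21 with thinning, and also without the NOTCH targets among the early markers (-0.21). The thinned early stage held 54 wild type and 251 mutant cells, so single-gene values there rest on few UMIs.

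Cdc45 was higher in mutant signalled cells, at 0.60, and lower in mutant double-positive cells, at -0.72. Chaf1b was higher in mutant early cells, at 0.78, and lower in mutant signalled cells, at -0.66. In thinned early cells its ratio was -0.22, likewise from few UMIs and with no interval. Atad2 was higher in mutant mature cells, at 0.87 from 16 wild type UMIs, and lower in mutant double-positive cells, at -0.63. The interval of Cdc45 in signalled cells included 0. With the mutant phases weighted to the wild type shares of UMIs, the double-positive ratios of Cdc45 and Atad2 turned to 0.38 and 0.52. With each cell thinned to 1500 UMIs these ratios were -1.20 and -0.59.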

How the results depend on the processing

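No paired analysis was possible because each genotype has 1 library. The settings below moved a count of members past 1.5-fold by over 1.5 times, or moved a median by more than a set limit. That limit was how far the members' counting intervals reach to either side, taken as their median. Where no cause is named, the cause was not tested. Of 248 alternatives for counts and medians, 207 kept the value within those bounds. Counts in this section take both directions together. Among the alternatives, the share of all genes past 1.5-fold was taken only for the phase weighting, over all cells and in the double-positive stage. Other counts under alternatives, here and above, have no such share beside them and are no results about the members.

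With the mutant phases weighted to wild type, chosen after the data were seen, the count was 0 over all cells (median 0.14), 7 in the early stage and 3 in the double-positive stage (median 0.11). Cdc45 was then at 0.24 and 2810417H13Rik at 0.0033 over all cells. In the double-positive stage Mcm3 was at 0.24, Mcm5 0.19, Cdc45 0.38, Gins2 0.031, Gmnn 0.026, Prim1 0.41, 2810417H13Rik 0.027, Tipin 0.18, Fen1 0.31, Ung 0.11, Blm 0.37, Slbp 0.22, Atad2 0.52 and Wdr76 0.0053. Without ribosomal protein and mitochondrial genes the counts were 5 in the early stage, 1 in S phase, 7 in G2/M and 22 for mutant early over double-positive cells. With median-of-ratios size factors they were 5, 0 and 7 in the early stage, S phase and G2/M, and with means over cells 1 in the mature stage and 1 in S phase.

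Thinned to 1500 UMIs, counts were 13 in the early stage, 8 in the mature stage, 7 in S phase and 9 in G2/M. For early over double-positive cells they were 18 in wild type and 9 in mutant (median -0.30). The thinned early stage held 54 wild type and 251 mutant cells, so single-gene values there rest on few UMIs. Of the values past 1.5-fold in the main setting, some changed sign. Between the libraries these were Chaf1b in the early stage (-0.22), Ung in the double-positive stage (0.37) and Hells in G2/M (0.39). For early over double-positive cells these were Exo1 in wild type (0.94), and in mutant Mcm5 (-0.93), Mcm6 (-0.017), Cdc6 (-0.21), Pola1 (-0.80), Rpa2 (-0.57) and Nasp (-0.19). Values short of that limit also changed sign, among them Cdc45 (-1.80) and Hells (0.59) in the early stage, and are not listed in full. With an equal UMI limit of 1781, counts were 7 in the early, 15 in the double-positive and 2 in the signalled stage, and 7 for mutant early over double-positive cells. Without the NOTCH targets, counts were 5 in the early stage (median -0.30), 16 in the double-positive stage and 4 for mutant early over double-positive cells (median -0.18). Of the members past 1.5-fold in the last comparison in the main setting, Mcm3 (-0.12), Cdc6 (-0.21), Gins2 (-0.031), Rpa2 (-0.18) and Nasp (-0.15) changed sign. Members short of that limit are not listed. With at least 4 marker UMIs the counts were 6, 16 and 2 (median 0.0933).

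Without the 5% highest doublet scores the early count was 5. With S phase set from histones, 6 members were past 1.5-fold between the libraries in S phase, the median of S phase over G2/M was 0.84 in wild type and 0.75 in mutant with 22 members past 1.5-fold there, Ung was at -0.57 and -1.71, and Rpa2 at -0.14 in mutant. In G2/M the count was 2 with at least 800 genes and at most 5% mitochondrial UMIs, and 7 with no minimum level. With 1 library per genotype, differences between animals, dissections or library preparations cannot be told apart from genotype. Intervals cover counting error only. Depth limits genes with few UMIs in a stage or phase.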
